A study of Rattus norvegicus with 325 samples.

Results

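The myogenic regulatory factors are the 4 transcription factors Myf5, Myod1, Myog and Myf6, and their transcripts were followed through 4 skeletal muscles and 7 ages of the rat. The members were taken by gene symbol, each had 1 line in every count table, and they are 4 of the 17315 symbols listed there. All 4 passed the filter on low counts in every muscle.

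The data are bulk RNA sequencing counts per gene from untreated male rats of the Sprague Dawley stock, which is outbred, bought from a breeder and aged there. They cover 83 libraries of the diaphragm, 73 of the gastrocnemius, 84 of the soleus and 85 of the tibialis anterior, taken at 6 months, then at 9, 12 and 18 months, and then every 3 months from 21 to 27, with no treatment or genetic change in any group. Each group of 1 muscle and 1 age held 9 to 13 libraries, and the study describes them as separate animals, although the labels do not say which libraries of different muscles share an animal. Because all rats of an age were dissected on the same day, age and collection day cannot be told apart.

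The factors are basic helix-loop-helix proteins that pair with E proteins and bind E-boxes, short DNA sites of the form CANNTG. Myf5 and Myod1 commit precursors to the muscle lineage and are active in activated satellite cells, the stem cells of muscle. Myog drives differentiation into fibres, is low in adult muscle and is known to rise when a muscle loses its nerve, while Myf6, also called MRF4, is the member that adult fibres keep at a high level. In adult rodents Myod1 is known to be higher in fast muscles and Myog in slow muscles.

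The 250 bases before the transcription start are shown for the members that the RefSeq tables hold (build GRCr8), because E-boxes in such windows are where members of the family could act on each other. Each window is written 5′ to 3′ on the strand of its gene, and capitals mark an E-box, a motif that reads the same on both strands. Myod1 had no window in the tables.
Myf5, chr7:44692639-44692888, minus strand: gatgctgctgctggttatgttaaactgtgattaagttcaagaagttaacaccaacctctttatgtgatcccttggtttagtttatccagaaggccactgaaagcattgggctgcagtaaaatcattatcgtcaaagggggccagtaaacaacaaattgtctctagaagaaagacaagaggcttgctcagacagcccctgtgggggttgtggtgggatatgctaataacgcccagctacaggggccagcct
Myf6, chr7:44701314-44701563, minus strand: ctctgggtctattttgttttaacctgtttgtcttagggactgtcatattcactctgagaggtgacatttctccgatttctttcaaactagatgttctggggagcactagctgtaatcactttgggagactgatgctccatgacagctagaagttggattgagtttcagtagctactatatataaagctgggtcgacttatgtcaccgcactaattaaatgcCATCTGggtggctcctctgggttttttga
Myog, chr13:48297226-48297475, plus strand: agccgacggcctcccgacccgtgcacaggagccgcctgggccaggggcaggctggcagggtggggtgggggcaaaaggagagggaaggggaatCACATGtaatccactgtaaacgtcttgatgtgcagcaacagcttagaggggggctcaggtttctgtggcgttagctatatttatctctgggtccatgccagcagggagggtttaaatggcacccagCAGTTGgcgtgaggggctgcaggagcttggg

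The Myog window held 2 E-boxes, CACATG at 157 bases and CAGTTG at 31 bases before the start. The Myf6 window held 1, CATCTG at 29 bases, and the Myf5 window held 0. Of all 33469 windows of that length, 65.5% held at least 1 E-box and 30.8% at least 2, so these matches are a description of the letters and not of binding. Myf5 and Myf6 lie next to each other, with no other gene of the table between them.

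Libraries held 17.6 to 85.3 M counts, and the lowest member count in any library was 43, for Myf5. Levels are given as CPM, counts scaled to the size of the library, after scaling by the trimmed mean of M values (TMM), and since transcript lengths were not at hand they are compared between groups and not between genes. The muscle labels were checked against fibre genes: Myh7, the slow myosin, had a median of 2207 CPM in the tibialis anterior and 47468 in the soleus, and Myh4, the fastest myosin, 77830 and 14.3 CPM. In their whole profile 2 libraries of the tibialis anterior at 27 months (replicates 0 and 11) lay closer to the centre of the gastrocnemius than to that of their own muscle. The running numbers in the labels form 3 series. Of these, 1 holds all gastrocnemius libraries, and another all 12-month libraries of the other muscles plus 1 library of each at 21 months. Comparisons with the gastrocnemius, or with 12 months elsewhere, therefore cannot be told apart from these series. The 21-month groups outside the gastrocnemius mix 2 series.

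At 6 months the members had their own order across the muscles, as the plot of each factor by library shows. Myod1 was lowest in the soleus, where the 12 libraries lay between 7.90 and 16.4 CPM with a median of 11.3. Its median was 47.2 CPM in the diaphragm (37.1 to 123), 79.8 in the gastrocnemius (60.1 to 113) and 103 in the tibialis anterior (71.6 to 152). No library of another muscle reached down to the soleus range. Myod1 was lower in the soleus than in the tibialis anterior by a log2 difference of -3.19 (SE 0.21, limma adjusted p = 1.2e-37), and the neighbours gastrocnemius and tibialis anterior did not differ by the call rule (-0.35, SE 0.19, adjusted p = 0.11). A difference or change was called when its Benjamini-Hochberg adjusted p in limma was under 0.05 and it was over 1.5-fold.

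**Figure D1:**
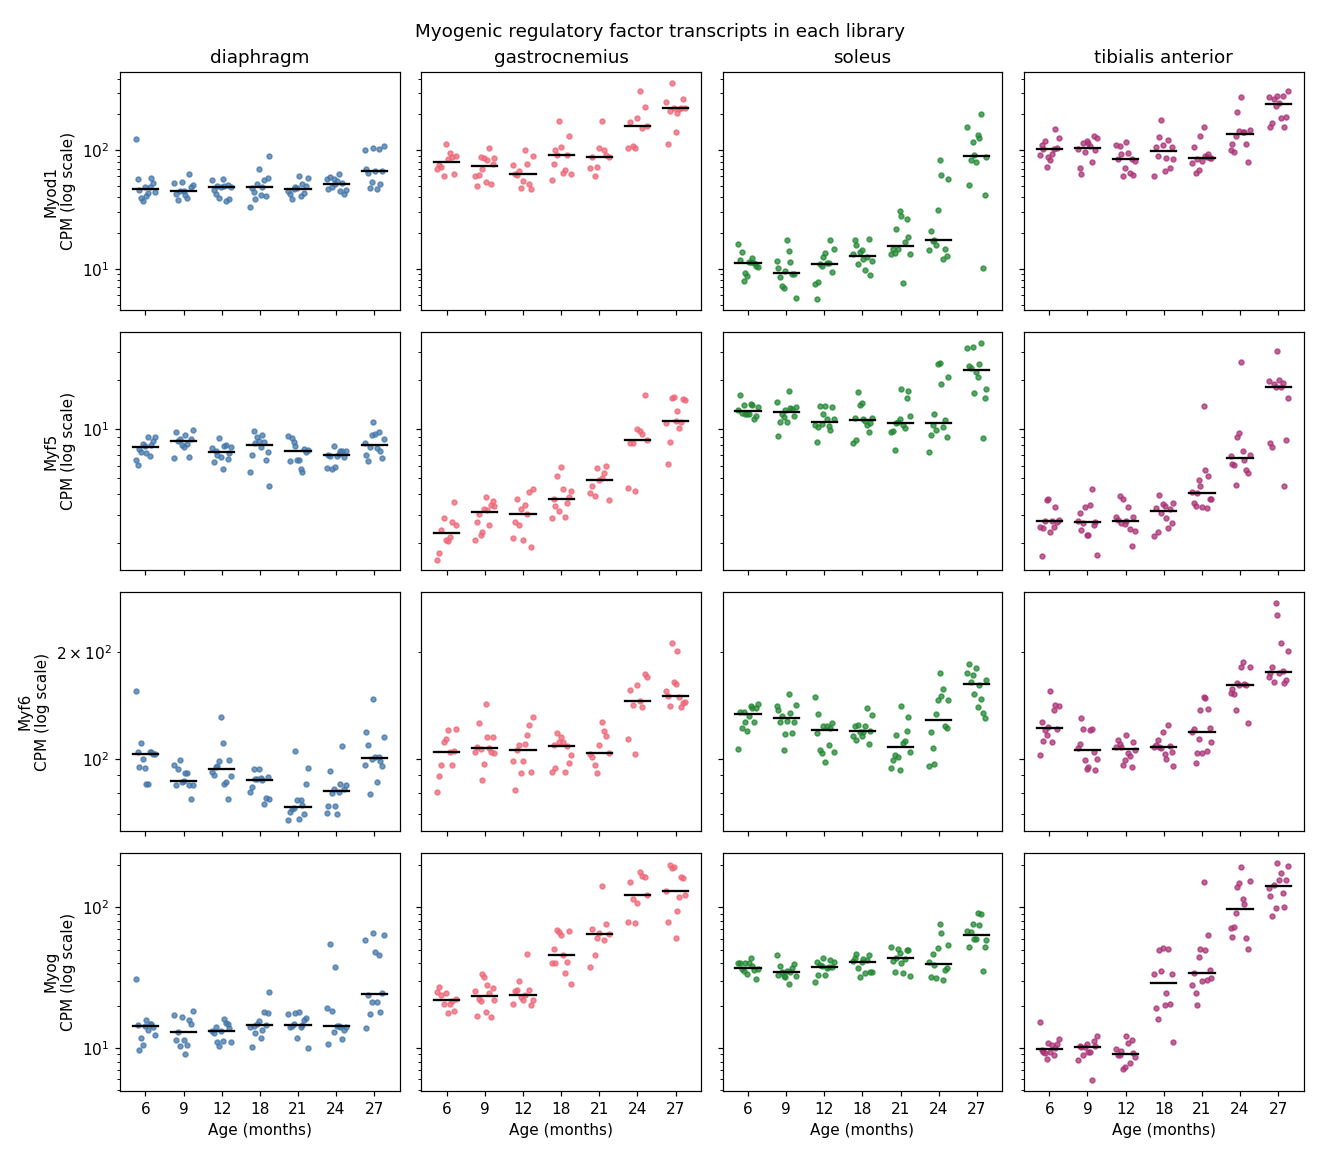
TMM-scaled CPM of Myod1, Myf5, Myf6 and Myog (rows, log scale) against age in months in the 4 muscles (columns). Each point is 1 library and each bar the median of its group. Myod1 in the soleus had a median of 11.3 CPM at 6 months and 89.3 at 27 months, and Myog in the tibialis anterior 9.88 and 141 CPM.

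Myf5 and Myog were highest in the soleus at that age. Myf5 ranged from 11.6 to 16.4 CPM in the soleus (median 12.9) and from 6.08 to 9.01 in the diaphragm (median 7.78). In the fast muscles its median was 2.72 CPM in the tibialis anterior (1.67 to 3.75) and 2.30 in the gastrocnemius (1.59 to 3.60), and these last 2 did not differ by the call rule (-0.30, SE 0.27, adjusted p = 0.37). The soleus and diaphragm libraries overlapped neither each other nor those of the fast muscles.

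Myog had a median of 37.4 CPM in the soleus (31.2 to 44.0), 22.0 in the gastrocnemius (17.9 to 27.2), 14.3 in the diaphragm (9.70 to 30.8) and 9.88 in the tibialis anterior (8.40 to 15.4). The soleus exceeded the tibialis anterior by a log2 difference of 1.88 (SE 0.20, adjusted p = 1.3e-17) with no overlap of libraries. The diaphragm and tibialis anterior were neighbours that did not pass the rule (0.49, SE 0.22, adjusted p = 0.034, under 1.5-fold). Myf6 had medians from 103 CPM in the diaphragm to 133 in the soleus, and 0 of 6 pairs were called. The diaphragm minus soleus difference was -0.35 (SE 0.07, adjusted p = 9.7e-06), under 1.5-fold. With total-count scaling, Myf6 at 6 months, gastrocnemius minus soleus, went from -0.34 to -0.74 (adjusted p = 1.9e-15) and was called.

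Of the 24 pairs of muscles and members at 6 months, 15 were called, in a comparison where many genes differ: between 17.3% (gastrocnemius against tibialis anterior) and 45.4% (gastrocnemius against soleus) of the 12784 genes tested. For the other pairs the share was 37.3% for diaphragm against gastrocnemius, 23.9% for diaphragm against soleus, 35.1% for diaphragm against tibialis anterior and 42.9% for soleus against tibialis anterior.

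By 27 months most members had risen in the limb muscles, while in the diaphragm only Myog passed the rule. Of 16 changes from 6 to 27 months, 12 were called, all of them higher at 27 months. These were 4 of 4 members in the gastrocnemius and in the tibialis anterior, 3 of 4 in the soleus (Myf6 was not called) and 1 of 4 in the diaphragm (Myog). Over all genes tested, the share called higher was 15.1% in the gastrocnemius, 17.2% in the tibialis anterior, 9.21% in the soleus and 3.27% in the diaphragm. The median log2 change of the 4 members was 1.90, 1.78, 0.76 and 0.25 in those muscles, and that of all genes tested 0.04, 0.02, 0.02 and 0.00. In bulk tissue, more cells that express a gene and more RNA of it per cell cannot be told apart.

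Myog changed most in the tibialis anterior. Its 12 libraries at 27 months lay between 87.1 and 206 CPM with a median of 141, all above the highest 6-month library at 15.4. The log2 change was 3.76 (SE 0.23, adjusted p = 9.2e-25), a 13.5-fold rise, and it was 3.76 and 3.71 without replicate 0 or 11, which lay closer to the gastrocnemius. In the gastrocnemius Myog went from a median of 22.0 to 131 CPM (60.7 to 199 in 11 libraries), again with no overlap, and the log2 change was 2.56 (SE 0.18, adjusted p = 1.7e-19).

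The soleus, which had the highest Myog level at 6 months, rose least among the limb muscles. Its median went from 37.4 to 63.2 CPM, and 11 of 12 libraries exceeded the highest at 6 months (log2 change 0.79, SE 0.11, adjusted p = 8.7e-10). The exception was replicate 9, at 35.3 CPM, whose omission gave a change of 0.86. In the diaphragm the median went from 14.3 to 24.2 CPM (13.8 to 65.4), with a log2 change of 1.05 (SE 0.20, adjusted p = 9.2e-06). There the libraries fell apart: 5 of 12 (replicates 0, 5, 6, 8 and 11) lay at 45.6 to 65.4 CPM, above every 6-month library, and the other 7 at 13.8 to 24.7 CPM, within the 6-month range. The change in the diaphragm did not differ from that in the soleus by the call rule (diaphragm minus soleus 0.33, SE 0.25, adjusted p = 0.32).

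For Myod1 the soleus stood out instead. From a median of 11.3 CPM at 6 months it reached 89.3 CPM at 27 months, with a wide spread from 10.2 to 201 CPM. Of the 12 libraries, 11 exceeded the highest 6-month value of 16.4 CPM, and replicate 9 stayed at 10.2 CPM. The log2 change was 2.88 (SE 0.29, adjusted p = 6.6e-14), 7.38-fold, and 3.14 without replicate 9.

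In the fast muscles Myod1 rose from a higher base. The median went from 79.8 to 225 CPM in the gastrocnemius (113 to 369 at 27 months) and from 103 to 243 CPM in the tibialis anterior (157 to 317), without overlap in either. The log2 changes were 1.45 (SE 0.18, adjusted p = 1.3e-10) and 1.15 (SE 0.15, adjusted p = 2.4e-10). In the diaphragm the median was 47.2 CPM at 6 months and 66.5 at 27 months, and the log2 change of 0.43 (SE 0.13, adjusted p = 0.0038) stayed under 1.5-fold. The diaphragm groups overlapped throughout, since replicate 0 at 6 months held 123 CPM, and without it the change was 0.56 (adjusted p = 3.8e-05), still under 1.5-fold.

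Myod1 is also known as a gene under circadian control, and clock genes differed between 6 and 27 months. For them, too, age and collection day cannot be told apart. Arntl, the core clock activator, was lower at 27 than at 6 months in all 4 muscles, with log2 changes of -2.16 (tibialis anterior), -2.07 (soleus), -2.04 (gastrocnemius) and -2.65 (diaphragm). Dbp, an output gene of the clock, was higher by 2.39, 1.52, 1.43 and 2.49 in the same order. All 8 values were called. By muscle, 3.27% to 17.2% of all genes tested were called higher and 4.25% to 10.4% lower. The pair of genes was chosen after the data had been seen, and the part of the clock in the Myod1 values was not tested.

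Myf5 rose from a very low base in the fast muscles. In the tibialis anterior the 12 libraries went from a median of 2.72 CPM to one of 18.2 (4.51 to 30.2), with no overlap. In the gastrocnemius they went from 2.30 to 11.2 CPM (6.11 to 15.9), also with no overlap. The log2 changes were 2.41 (SE 0.24, adjusted p = 6.7e-15) and 2.35 (SE 0.19, adjusted p = 2.7e-17), which is 5.30-fold and 5.10-fold. The spread in the tibialis anterior was wide, as 4 libraries lay at 4.51 to 8.66 CPM and the other 8 at 15.5 to 30.2 CPM.

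Myf5 in the soleus started higher and rose less, from a median of 12.9 to 23.2 CPM (8.80 to 33.9), and 10 of 12 libraries exceeded the 6-month maximum. Its log2 change was 0.74 (SE 0.14, adjusted p = 1.1e-05). In the diaphragm Myf5 had medians of 7.78 and 8.04 CPM with overlapping libraries, and a change of 0.08 (SE 0.09, adjusted p = 0.54).

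Myf6, the adult fibre factor, had the smallest changes of the 4 members in the limb muscles. It went from a median of 105 to 150 CPM in the gastrocnemius and from 122 to 175 CPM in the tibialis anterior, and all 27-month libraries of both muscles lay above all 6-month ones. The log2 changes of 0.63 (SE 0.08, adjusted p = 1.1e-09) and 0.61 (SE 0.07, adjusted p = 2.3e-12) were just past 1.5-fold. Without replicate 4 or replicate 5 of the tibialis anterior at 27 months, or replicate 0 at 6 months, the second value was 0.56, 0.57 or 0.58 and no longer called. In the soleus the median went from 133 to 163 CPM and the change of 0.30 (SE 0.07, adjusted p = 1.9e-04) was under 1.5-fold.

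In the diaphragm Myf6 dipped in between. Its median was 103 CPM at 6 months, 73.2 CPM at 21 months (67.2 to 105) and 100.5 CPM at 27 months (79.7 to 148). The change at 21 months was -0.41 (SE 0.07, adjusted p = 7.3e-05), under 1.5-fold, and that at 27 months was -0.03 (SE 0.07, adjusted p = 0.73), whose sign turned under total-count scaling (0.01).

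**Figure D2:**
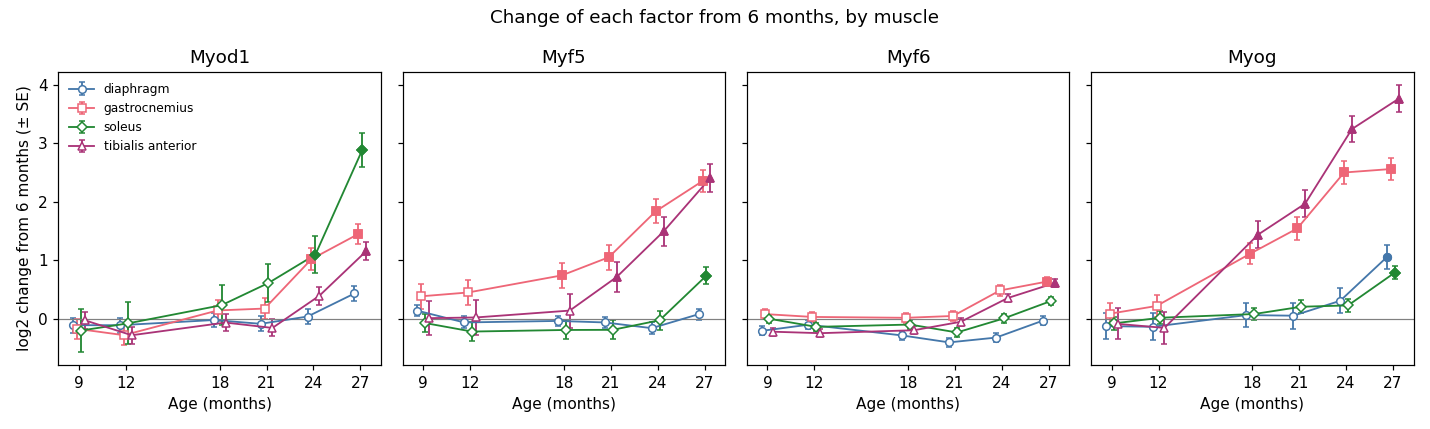
log2 change of Myod1, Myf5, Myf6 and Myog from 6 months (vertical axis) at each later age in months (horizontal axis), 1 line per muscle, from the limma fit. Bars are standard errors and filled symbols mark called changes. Myog in the tibialis anterior was called from 18 months (1.44) and reached 3.76 at 27 months, and 0 values were called at 9 or 12 months.

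The ages at which the members first differed from 6 months differed by member, and the order was not the same in each muscle. In the fast muscles Myog and Myf5 were called at earlier ages than Myod1 and Myf6, and in the soleus Myod1 was called at an earlier age than Myf5 and Myog. These orders are read from calls and were not tested, and they depend on the adjustment. With Bonferroni-adjusted p-values Myod1, Myf5 and Myog in the soleus were all first called at 27 months, and Myf5 in both fast muscles at 24 months, the age at which Myod1 in the gastrocnemius was first called too. Myog in the fast muscles was called from 18 months with either adjustment. At 9 and at 12 months 0 of 16 changes were called in limma, where few genes were called at all in either direction. They were 0.143% of all genes tested in the gastrocnemius, 0.00851% in the tibialis anterior, 0.123% in the soleus and 0.108% in the diaphragm at 9 months, and 0.885%, 0.196%, 0.353% and 0.532% in that order at 12 months. At 18 months 3 changes were called, those of Myog in the gastrocnemius and tibialis anterior, and of Myf5 in the gastrocnemius. At 21 months Myf5 in the tibialis anterior joined them, at 24 months Myod1 in the gastrocnemius and soleus, and at 27 months Myf6 in the fast muscles, Myod1 in the tibialis anterior, Myf5 and Myog in the soleus and Myog in the diaphragm. Of all genes tested, the share called higher at 18 months was 3.63% in the gastrocnemius, 4.11% in the tibialis anterior, 1.66% in the soleus and 1.62% in the diaphragm. At 21 months it was 4.27%, 5.5%, 1.41% and 1.12%, and at 24 months 11.4%, 10.9%, 3.87% and 2.19%, in the same order of muscles.

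At 18 months Myog in the tibialis anterior lay between 11.1 and 51.7 CPM with a median of 29.2, and 11 of 12 libraries exceeded the 6-month maximum of 15.4. The log2 change was 1.44 (SE 0.23, adjusted p = 1.2e-06), and both groups belong to the same series of label numbers. Against 12 months, which lies in another series in this muscle, it was 1.60 (SE 0.24, adjusted p = 4.8e-07). In the gastrocnemius, whose ages all share 1 series, the 11 libraries at 18 months held 28.5 to 68.8 CPM, all above the 6-month maximum of 27.2, and the change was 1.11 (SE 0.18, adjusted p = 1.2e-05) against 6 months and 0.90 (SE 0.18, adjusted p = 0.0022) against 12 months.

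From 18 to 21 months the steps of Myog did not pass the call rule, with 0.43 in the gastrocnemius (SE 0.18, adjusted p = 0.36) and 0.53 in the tibialis anterior (SE 0.20, adjusted p = 0.036, under 1.5-fold). The next step, from 21 to 24 months, was 0.96 in the gastrocnemius (SE 0.19, adjusted p = 9.6e-05) and 1.28 in the tibialis anterior (SE 0.19, adjusted p = 1.1e-06). From 24 to 27 months Myog moved by 0.06 in the gastrocnemius (SE 0.18, adjusted p = 0.89), where the medians were 124 and 131 CPM.

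Of the 16 steps from 24 to 27 months 5 were called, all higher, and 2 of them were in the soleus. With Bonferroni adjustment 4 remained, without Myog in the diaphragm. In the soleus Myod1 rose by 1.79 (SE 0.26, adjusted p = 6.5e-08) and Myf5 by 0.76 (SE 0.15, adjusted p = 2.7e-05). The others were Myod1 (0.76) and Myf5 (0.92) in the tibialis anterior and Myog in the diaphragm (0.75). The shares of all genes called higher in this step were 2.97% in the soleus, 4.17% in the tibialis anterior, 0.872% in the diaphragm and 0.548% in the gastrocnemius. From 21 to 24 months 5 of 16 steps were called, 2 with Bonferroni adjustment (Myog in both fast muscles), all in the fast muscles, where 4.22% of all genes were called higher in the gastrocnemius and 2.8% in the tibialis anterior, against 0.353% in the soleus and 0% in the diaphragm.

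Single libraries ran ahead of their group. In the tibialis anterior at 21 months replicate 7 held 153 CPM of Myog and 14.0 CPM of Myf5, against at most 63.6 and 5.64 CPM in the other 12. Without it the Myf5 change at 21 months went from 0.71 (adjusted p = 0.034) to 0.58 (adjusted p = 0.090) and lost its call, while that of Myog went from 1.96 to 1.80 and kept it. Also without it, the Myod1 step from 21 to 24 months went from 0.55 to 0.62 and gained its call. In the soleus at 24 months replicates 5, 6, 7 and 11 held 31.2 to 83.3 CPM of Myod1, and the other 8 held 12.2 to 20.7 CPM. The same 4 libraries were the highest of that group in Myf5 and in Myog.

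Described over all ages, 14 of 16 series of a member in a muscle followed a late logistic rise, meaning a sigmoid curve of log2 CPM on age with its inflection after 21 months that improved the Bayesian information criterion over no trend and over a line. The inflections lay between 22.5 months (Myog in the gastrocnemius) and 27 months (Myod1 in the soleus), the last being the end of the range searched. Myf5 and Myf6 in the diaphragm had no trend. The class was not worked out for all genes, so no share of all genes stands beside this count. Unlike in the study, a called change was not required first. Myod1 in the diaphragm and Myf6 in the soleus are counted, though neither was called at 27 months.

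At 27 months the order of the muscles had changed for Myog. The tibialis anterior and gastrocnemius, with medians of 141 and 131 CPM, did not differ by the call rule (gastrocnemius minus tibialis anterior -0.09, SE 0.17, adjusted p = 0.70). Both exceeded the soleus, at 63.2 CPM, by log2 differences of 1.11 and 1.02 (soleus minus tibialis anterior -1.11, adjusted p = 2.0e-10, and gastrocnemius minus soleus 1.02, adjusted p = 9.1e-09). The diaphragm was lowest at 24.2 CPM. The soleus had thus passed from above the tibialis anterior to below it, and the difference of the 2 muscles' changes was -2.99 (SE 0.26, adjusted p = 4.0e-23).

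For Myod1 the soleus stayed below the tibialis anterior, by a smaller distance. The soleus minus tibialis anterior difference was -3.19 at 6 months and -1.48 at 27 months (SE 0.18, adjusted p = 3.7e-14), and the muscles' changes differed by 1.71 (SE 0.28, adjusted p = 4.2e-08). The soleus, at 89.3 CPM, was now above the diaphragm, at 66.5 CPM, but these neighbours did not differ by the rule at 27 months (diaphragm minus soleus -0.20, SE 0.18, adjusted p = 0.33). Myf5 remained highest in the soleus (23.2 CPM), followed by the tibialis anterior (18.2 CPM), a difference of 0.59 (SE 0.13, adjusted p = 1.8e-05) that lay on the fold threshold and lost its call in 5 of 7 other settings. Myf6 was lower in the diaphragm than in each of the others at 27 months, by -0.63, -0.63 and -0.89 against the gastrocnemius, soleus and tibialis anterior.

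Of 24 differences in change between muscles, 17 were called, and the share of all 12784 genes called ran from 7.32% (gastrocnemius against tibialis anterior) through 11.9% (diaphragm against soleus), 14.5% (gastrocnemius against soleus), 15.8% (soleus against tibialis anterior) and 20.3% (diaphragm against tibialis anterior) to 21.6% (diaphragm against gastrocnemius). Between the fast muscles only Myog was called in its change (-1.22, SE 0.28, adjusted p = 1.8e-04), a call lost with Bonferroni adjustment (adjusted p = 0.18), with 0.29, -0.06 and 0.02 for Myod1, Myf5 and Myf6. At 27 months 16 of 24 level differences were called, against 10.4% of all genes between the fast muscles, 34% for gastrocnemius against soleus, 31.7% for soleus against tibialis anterior, and 32.3%, 27.9% and 27.4% for the diaphragm against the gastrocnemius, soleus and tibialis anterior.

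The ratio of Myog to Myod1 within a library, which needs no scaling, had a lower median at 27 than at 6 months in the soleus and a higher one in the other muscles; the difference was not tested. In the soleus the median ratio was 3.41 at 6 months (2.45 to 4.44) and 0.677 at 27 months (0.432 to 3.46). In the tibialis anterior it was 0.0971 at 6 months (0.0661 to 0.168) and 0.623 at 27 months (0.427 to 0.942). The 2 muscles' libraries did not overlap at 6 months and did at 27 months, and in the soleus the highest library at 27 months, replicate 9, lay within the 6-month range. The gastrocnemius ratio was 0.271 at 6 months, peaked at 0.758 at 24 months and was 0.542 at 27 months, and the diaphragm ratio was 0.281 and 0.421 at 6 and 27 months.

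**Figure D3:**
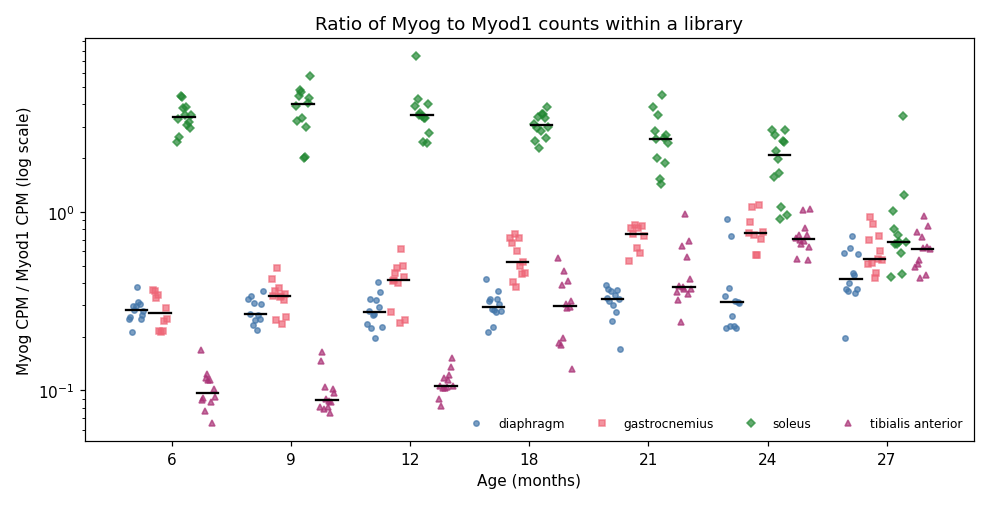
Ratio of Myog to Myod1 CPM within each library (log scale) against age in months, with the 4 muscles side by side and bars at the medians. The soleus median fell from 3.41 to 0.677 and the tibialis anterior median rose from 0.0971 to 0.623 between 6 and 27 months.

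Many genes that the factors are known to activate were higher at 27 months as well. The list of these genes was chosen with earlier results of these data known. Of 21 target genes tested, 14 were higher and 1 lower at 27 months in the gastrocnemius, 15 and 2 in the tibialis anterior, 16 and 0 in the soleus and 11 and 0 in the diaphragm. The share of all genes tested that was called higher was 15.1%, 17.2%, 9.21% and 3.27% in that order, and that called lower was 7.76%, 10.4%, 5.78% and 4.25%. The list medians were 1.69, 1.90, 1.57 and 0.59, beside medians of all genes of at most 0.04. Chrna1 and Chrnd, subunits of the acetylcholine receptor, and Chrng, the subunit of its embryonic form, were among the largest. Chrna1 went from a median of 13.7 to 614 CPM in the tibialis anterior (log2 change 5.35, SE 0.35), from 8.87 to 312 in the gastrocnemius (4.82, SE 0.29), from 57.0 to 382 in the soleus (2.55, SE 0.27) and from 20.3 to 48.6 in the diaphragm (1.29, SE 0.20). The adjusted p-values were 2.6e-23, 8.6e-23, 2.0e-13 and 2.4e-07.

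Chrng went from 0.252 to 34.2 CPM in the tibialis anterior, so its fitted change of 7.16 (SE 1.05, adjusted p = 4.9e-09) rests on few counts at 6 months. Chrnd was higher by 1.57 in the soleus, 1.83 in the diaphragm, 3.34 in the gastrocnemius and 4.83 in the tibialis anterior. Myh3, the embryonic myosin, was higher by 4.07, 3.79, 2.45 and 1.60 in the gastrocnemius, tibialis anterior, soleus and diaphragm. Cdkn1a, a cell cycle inhibitor that Myod1 can induce, reached 5.33 in the tibialis anterior and 4.76 in the soleus. Tmem8c, which codes for the fusion protein myomaker, was higher by 5.00 in the tibialis anterior (0.265 to 8.62 CPM).

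Not every target moved this way. Ckm, the muscle creatine kinase, was lower in the gastrocnemius (-0.83, SE 0.13, adjusted p = 1.4e-07) and tibialis anterior (-0.85, SE 0.12, adjusted p = 1.0e-09). Cdh15, the cadherin of myoblasts and satellite cells, was lower in the tibialis anterior (-0.60) and higher in the soleus (0.77). Fbxo32 and Trim63, the ubiquitin ligases of muscle wasting, were called in 0 muscles, with changes between -0.24 and 0.49, all under 1.5-fold. For Trim63 in the diaphragm only the fold threshold was missed (0.38, SE 0.11, limma adjusted p = 0.0046). Fbxo32 there had a change of -0.13 (SE 0.09, limma adjusted p = 0.27). The paper reports a significant rise of Trim63, but not of Fbxo32, in old rat muscles. Ckm, Cdh15 and these ligases were named after their values were seen.

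**Figure D4:**
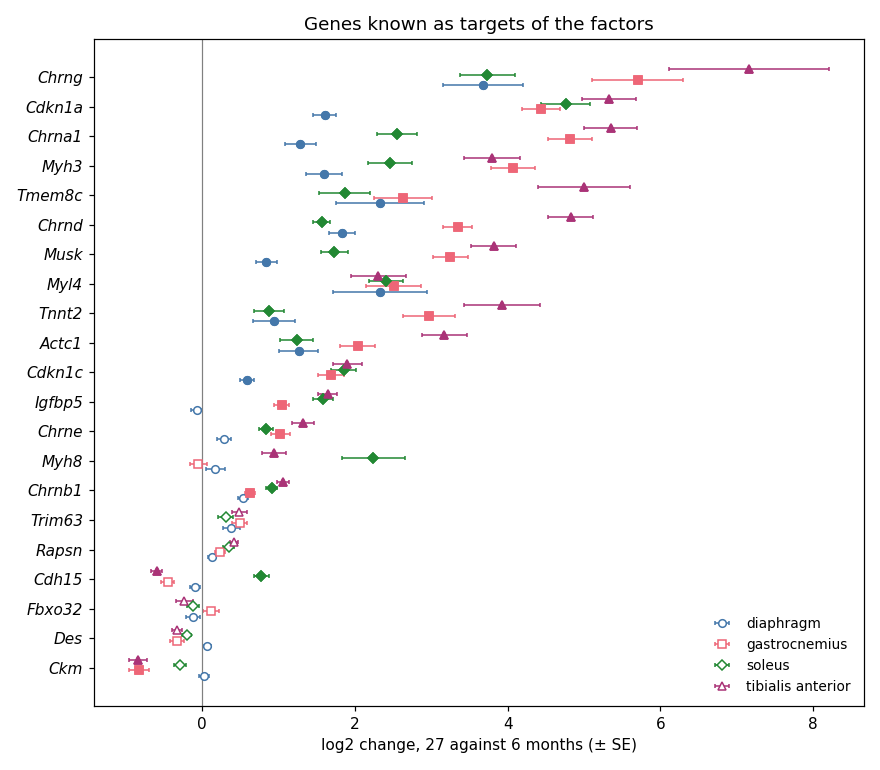
log2 change from 6 to 27 months (± SE, horizontal axis) of 21 genes known as targets of the myogenic factors (vertical axis), 1 symbol per muscle, filled where called. Chrng, Cdkn1a and Chrna1 stand at the top, and Ckm at the bottom with -0.85 in the tibialis anterior and -0.83 in the gastrocnemius.

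Partners and upstream regulators were examined in the same way. Of the E protein partners Tcf3, Tcf4 and Tcf12, 0 of 3 were called in any muscle, with changes between -0.36 and 0.38. Of the upstream activators and cofactors, 2 of 10 were lower in the gastrocnemius and 2 of 9 in the tibialis anterior. Smarcd3, the chromatin remodelling subunit that works with Myod1, was among them in both muscles (-0.69 and -0.68). In the soleus 0 of 9 and in the diaphragm 0 of 10 were called. Of all genes tested, 7.76% were called lower in the gastrocnemius, 10.4% in the tibialis anterior, 5.78% in the soleus and 4.25% in the diaphragm. The share called higher was 15.1%, 17.2%, 9.21% and 3.27% in that order.

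Among inhibitors and repressors 8 of 17 were higher and 1 lower in the tibialis anterior, 7 and 2 in the gastrocnemius, 5 and 0 in the soleus and 1 and 1 in the diaphragm. Of all genes tested, 17.2%, 15.1%, 9.21% and 3.27% were called higher in that order, and 10.4%, 7.76%, 5.78% and 4.25% lower. Hdac4, a histone deacetylase known to act between nerve activity and Myog, was higher in all 4 muscles, by 2.64 in the tibialis anterior (SE 0.16, adjusted p = 2.7e-24), 2.25 in the soleus, 1.98 in the gastrocnemius and 1.00 in the diaphragm. Msc, which codes for the repressor musculin, was near the floor, at a median of 0.0219 CPM in the tibialis anterior at 6 months and 0.346 at 27 months. Id2, a protein that sequesters E proteins, was higher by 1.27 in both fast muscles and by 0.74 in the soleus, and was named after its values were seen.

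Markers of satellite cells, which can carry these transcripts, were followed as well. Pax7, which defines satellite cells, had log2 changes of 0.43 (SE 0.12, adjusted p = 0.0013, under 1.5-fold) in the tibialis anterior, -0.05 in the soleus, 0.17 in the gastrocnemius and 0.06 in the diaphragm, and was called in 0 muscles. It was named after its values were seen. The markers that the naming rule chose were Chrdl2, higher in the soleus (0.96, adjusted p = 1.9e-10) and diaphragm (0.59, adjusted p = 1.9e-07), and Fgfr4, a receptor for fibroblast growth factors, higher in the soleus (0.83, adjusted p = 3.9e-11). Of 10 satellite cell markers 2 were higher in the tibialis anterior and in the soleus and 1 in the gastrocnemius and in the diaphragm, and 0 were lower. Over all genes tested, the share called higher was 17.2% in the tibialis anterior, 9.21% in the soleus, 15.1% in the gastrocnemius and 3.27% in the diaphragm. The share called lower was 10.4%, 5.78%, 7.76% and 4.25% in that order. Their summed level ranged from 191 to 215 CPM at 6 months and from 191 to 276 CPM at 27 months in the tibialis anterior, from 335 to 437 and from 322 to 436 CPM in the soleus, from 195 to 247 and from 196 to 280 CPM in the gastrocnemius, and from 357 to 507 and from 382 to 444 CPM in the diaphragm. Their part in the changes of the members was not tested.

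All 6 macrophage markers were higher in the gastrocnemius and in the tibialis anterior, 1 of 6 in the soleus and 0 of 6 in the diaphragm. Their summed level went from 39.9–63.4 to 83.2–161 CPM in the tibialis anterior, from 75.6–126 to 147–245 CPM in the gastrocnemius, from 123–199 to 195–266 CPM in the soleus and from 110–182 to 152–249 CPM in the diaphragm. Of 5 adipocyte markers 4 were higher in each limb muscle and 0 in the diaphragm, and their summed level went from 24.9–45.5 to 52.2–75.9 CPM in the tibialis anterior, from 37.4–88.7 to 48.0–93.1 CPM in the gastrocnemius, from 42.9–177 to 158–407 CPM in the soleus and from 52.8–467 to 76.7–285 CPM in the diaphragm. Of 6 Schwann cell markers 3 were higher in the tibialis anterior, 2 higher and 2 lower in the gastrocnemius, 1 higher in the soleus and 0 called in the diaphragm. Of 4 endothelial markers 1 was lower in each limb muscle, and of 4 fibroadipogenic markers 1 was lower in the diaphragm. Among all genes tested, those called higher made up 17.2% (tibialis anterior), 15.1% (gastrocnemius), 9.21% (soleus) and 3.27% (diaphragm). Those called lower made up 10.4%, 7.76%, 5.78% and 4.25%, with the muscles in that order. Whether the counts of these short lists differ from such shares was not tested. No measured marker had a median of 0, and the part of these cells in the members' changes was not tested.

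Fibre genes moved as well. In the soleus 7 of 8 fast fibre genes were higher at 27 months, and their summed level went from 97.5–3005 CPM to 318–6862 CPM. In the gastrocnemius and the tibialis anterior 3 of 8 were lower, and in the diaphragm 1 was higher. Of 6 slow fibre genes 2 were lower in the tibialis anterior and 0 were called in the other muscles. The share of all genes called lower was 7.76% in the gastrocnemius, 10.4% in the tibialis anterior, 5.78% in the soleus and 4.25% in the diaphragm. That called higher was 15.1%, 17.2%, 9.21% and 3.27% in the same order. Their part in the Myod1 values of the soleus was not tested.

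Within the 27-month groups, members were compared with each other and with Chrna1 from library to library. Over 40 relations (the 6 pairs of members and each member with Chrna1, in 4 muscles) 21 had a Benjamini-Hochberg adjusted permutation p of Pearson's r under 0.05, all positive and 6 of them in the diaphragm, and 8 passed for Spearman's rho. In the limb muscles 6 of the 18 pairs of members passed for r and 1 for rho, and 9 and 5 of the 12 relations with Chrna1. Without the 2 libraries farthest from the median of the first gene, r of these 6 pairs lay between 0.28 (Myod1 and Myf5, gastrocnemius) and 0.82. For the 9 relations with Chrna1 it lay between 0.45 (Myf5, gastrocnemius) and 0.88. Other genes were not related in this way, so no share of all genes stands beside these counts. The counts therefore do not show that such relations are particular to the members. In the soleus Myod1 and Myog correlated with r = 0.93 (permutation p = 2e-05, adjusted p = 0.0006, 12 libraries) and rho = 0.90 (permutation p = 0.00024, adjusted p = 0.0075), and r was 0.82 without the 2 libraries farthest from the median of Myod1. Myog and Chrna1 gave r = 0.89 and rho = 0.86 in the soleus, r = 0.78 and rho = 0.85 in the tibialis anterior and r = 0.76 and rho = 0.82 in the gastrocnemius, with r of 0.88, 0.72 and 0.60 without the 2 farthest libraries. Both measures passed in these 3 muscles (permutation p from 5e-05 to 0.0064 for r and from 0.00067 to 0.0033 for rho, adjusted p from 0.00067 to 0.017 and from 0.0075 to 0.019).

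**Figure D5:**
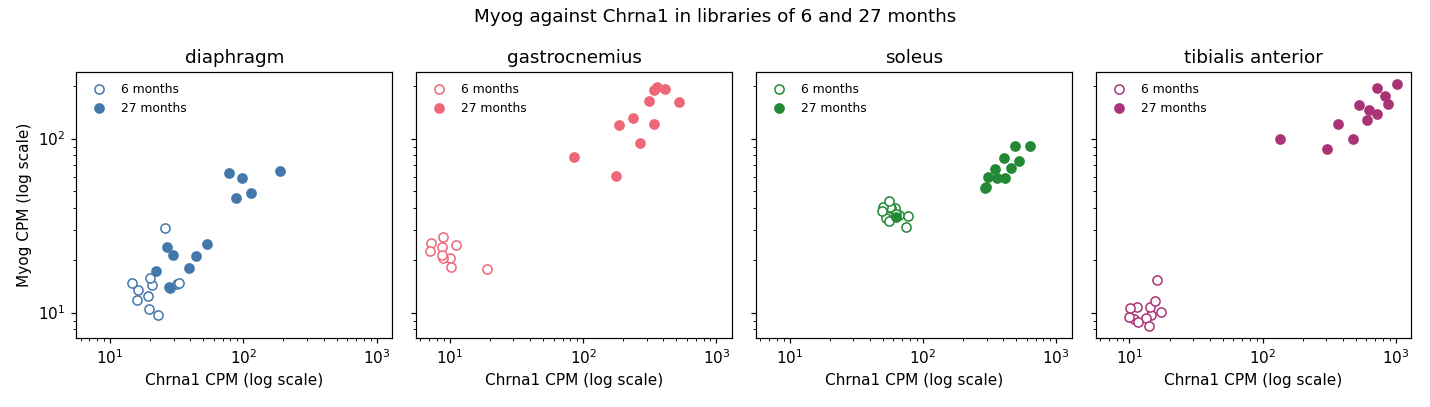
Myog CPM against Chrna1 CPM (both log scales) in each library at 6 months (open) and 27 months (filled), 1 panel per muscle. Replicate 9 of the soleus at 27 months, at 35.3 CPM of Myog and 62.8 of Chrna1, lies among the 6-month libraries, and 5 of the 12 diaphragm libraries lie apart from the other 7.

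In the diaphragm the 5 libraries high in Myog at 27 months were also the highest 5 in Chrna1, at 77.6 to 189 CPM against 22.0 to 52.9 in the other 7. Because these libraries fall into 2 clusters, no correlation is read from that muscle, including the 6 counted above. Myf5 in the tibialis anterior also split into 2 ranges at 27 months, and replicate 9 of the soleus lay apart. Relations that involve them carry a like limit. Myf6 correlated with Myog in 0 of the limb muscles at this threshold, with r of 0.18 in the tibialis anterior, 0.14 in the soleus and -0.06 in the gastrocnemius. These values were not stable. Without the 2 libraries farthest from the median of Myf6 they were 0.48, -0.74 and -0.40, and with total-count scaling 0.51, 0.56 and 0.18. The points of 1 muscle share their library, depth and animal across genes.

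Over the 28 group means of log2 CPM, the genes whose pattern was most like each member are given as a description. For Myod1 they were Ets2 (r = 0.98), Tmod1 (0.97) and Pstpip2 (0.96), and for Myf5 Pabpc1, Arhgef2 and Leprot (0.98, 0.97 and 0.97). For Myf6 they included Haus7 and Atf6 (0.92 each), and for Myog they were Chrd, Lmna and Slc29a1 (0.97, 0.96 and 0.96). With the mean of each muscle taken out, so that only the course over age counts, the genes most like Myog were Chrnd, Sat1 and Ctsl (0.98 each), those most like Myod1 Armc9, Cntn2 and Plekhh1 (0.97, 0.96 and 0.96), those most like Myf5 Klhl41, Cd151 and Scd2 (0.98, 0.97 and 0.97), and those most like Myf6 Slc25a5, Enc1 and Rgcc (0.93, 0.92 and 0.92). Among the members themselves Myf5 and Myog were the most alike in this second measure (0.91), and Myod1 and Myog the least (0.61). Many other genes were more alike. Over 12784 genes Myog ranked 348 in likeness to Myf5, and Myf5 ranked 326 in likeness to Myog. Myog ranked 2113 in likeness to Myod1, and Myod1 ranked 2971 in likeness to Myog.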

How the data were processed

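RNA from rat muscle kept in RNAlater was extracted, freed of ribosomal RNA and sequenced as strand-specific read pairs. The authors made raw counts per gene with the ArrayStudio pipeline (version not given in the sources used here) on the B6.0 rat reference with an in-house RefSeq gene model, and deposited these counts per library without normalization. Lines of 1 symbol were summed. The members and gene lists were chosen with earlier results of these data known. No pair of libraries of 1 group agreed within sampling noise (lowest chi-square per degree of freedom 8.21).

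Counts were scaled by TMM in edgeR 4.0.16 and fitted with limma-voom (limma 3.58.1, R 4.3.3), after filterByExpr (minimum count 10, minimum total 15), per muscle for ages and over all libraries with 28 groups for muscles. Tests were two-sided, and calls needed more than a 1.5-fold change besides an adjusted p below 0.05. log2 CPM used a prior count of 0.5. Relations used 100000 permutations. A trend needed a Bayesian information criterion over 6 below that of no trend, and the logistic form one over 2 below that of the line. Bonferroni, the adjustment named in the study's methods, and DESeq2 1.42.0 were among the alternatives. Named genes were the members, per list at most the 2 called genes with the largest change (6 for target genes, by mean change), and the 3 genes most alike per member and measure; others are marked where named. The promoter windows come from RefSeq tables of GRCr8, which is not the reference named for the counts. Dach2, Eya1, Mef2c, Mymx and Ly6a were not analysed here, and a few genes that the rule would name are not reported here.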

Additional observations from a re-analysis of the deposited data

Results flagged for a closer look

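The change from 6 to 27 months differed between muscles in 17 of 24 tests of the difference itself (limma interaction contrasts over all libraries, adjusted p under 0.05 and over 1.5-fold). Values are log2 changes of the first muscle minus those of the second. For Myog they were -1.45 for diaphragm minus gastrocnemius, -2.66 for diaphragm minus tibialis anterior, 1.78 for gastrocnemius minus soleus, -1.22 for gastrocnemius minus tibialis anterior and -2.99 for soleus minus tibialis anterior. For Myod1 they were -0.97 for diaphragm minus gastrocnemius, -2.39 for diaphragm minus soleus, -0.68 for diaphragm minus tibialis anterior, -1.42 for gastrocnemius minus soleus and 1.71 for soleus minus tibialis anterior. For Myf5 they were -2.22 for diaphragm minus gastrocnemius, -0.60 for diaphragm minus soleus, -2.28 for diaphragm minus tibialis anterior, 1.62 for gastrocnemius minus soleus and -1.68 for soleus minus tibialis anterior. For Myf6 they were -0.62 for diaphragm minus gastrocnemius and -0.60 for diaphragm minus tibialis anterior. With Bonferroni adjustment 13 of the 17 stayed called, without Myod1 for diaphragm minus gastrocnemius and minus tibialis anterior, Myf5 for diaphragm minus soleus and Myog for gastrocnemius minus tibialis anterior. With a 2-fold threshold 12 stayed, without the same values of Myod1 and Myf5 and without both of Myf6. Pairs with the gastrocnemius cannot be told apart from its own series of label numbers.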

How the results depend on the processing

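Of 156 values for the 16 changes at 27 months under other scalings, filters, tests, weights, thresholds and library series, 151 kept direction and call, as did 367 of 372 values with 1 library left out. A 2-fold threshold ended the calls of Myf6 in the gastrocnemius (0.63) and tibialis anterior (0.61) and of Myf5 (0.74) and Myog (0.79) in the soleus, and left 10 of 16 muscle differences at 27 months. With 1 library left out, Myf6 ranged from 0.56 to 0.64 in the tibialis anterior and from -0.085 to 0.031 in the diaphragm, where its uncalled value turned sign without 27-month replicate 3 (0.00068) or 6-month replicate 0 (0.031). Total-count scaling moved the median of all genes from 6 to 27 months by 0.32 (tibialis anterior), 0.28 (gastrocnemius), 0.15 (soleus) and 0.04 (diaphragm). Under it, uncalled Myf6 values turned to 0.0051 for the diaphragm change, 0.43 and 0.16 for diaphragm minus gastrocnemius and minus tibialis anterior at 6 months, -0.27 for gastrocnemius minus soleus at 27 months and -0.018 for the Myf6 change from 6 to 27 months, gastrocnemius minus tibialis anterior, which was -0.00498 with RLE size factors. With sample quality weights, Myf6 at 27 months, gastrocnemius minus soleus, was -0.0091 and gastrocnemius minus tibialis anterior for Myog 0.037. The cause was not tested. Of 504 values for the 72 muscle differences 463 kept direction and call. Same-numbered libraries of the diaphragm, soleus and tibialis anterior correlated by medians of 0.13 (diaphragm and soleus), 0.20 (diaphragm and tibialis anterior) and 0.18 (soleus and tibialis anterior), and 36 of 83, 42 of 83 and 43 of 84 correlated best with their own number, a hint from the data and not the design. Medians with the gastrocnemius were 0.03 to 0.08. Since single pairs went down to -0.26, -0.37 and -0.29 in those first 3 combinations, not every pair was over 0.1 and the numbers were not taken as pairs. The replicate block changed 0 of the 16 calls at 27 months and gave 15, 15 and 17 called muscle differences at 6 months, at 27 months and in the change, against 15, 16 and 17 without it. Bonferroni adjustment, tried at the other ages after seeing the data, left 2 of 3 calls at 18, 2 of 4 at 21, 5 of 6 at 24 months against 6, and 2 of 5 from 21 to 24 months. The relations at 27 months passed in 29 of 40 cases with total-count scaling. The lowest count of a member in a library was 43, for Myf5.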
